A study of Mus musculus with 2 samples.

Results

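The nuclear pore and transport genes are described here in common myeloid progenitors (CMP), bone marrow cells that give rise to granulocytes, monocytes, red cells and megakaryocytes. The genes were taken by symbol, as protein-coding genes named Nup, Kpna, Kpnb, Ipo or Xpo with a number or letter-number code, together with Ndc1, Aaas, Sec13, Seh1l, Rae1, Tpr, Pom121, Ranbp2, Ran, Tnpo1 and Cse1l. The rule found 52 genes among 21461 nuclear protein-coding genes, and no measured value entered it. The study sequenced total RNA, kept above 200 nucleotides, from 2 libraries of 1 group. Each library was prepared from 100 pooled primary cells, taken from adult male mice of strain C57BL/6J that were 5 to 6 weeks old, and the labels name no treatment. The labels call the libraries biological replicates 1 and 2 and give them the same donor identifier, so every spread given here is between these 2 pools and no condition is compared. The deposited gene tables held 28916263 expected counts in replicate 1 and 26426710 in replicate 2. Where 2 values are joined below, the first is that of replicate 1 and the second that of replicate 2. For a gene with 0 counts the level of 3 counts is the upper limit, 0.104 and 0.114 CPM (counts per 1000000), which covers counting error only. The CMP label was checked against its markers. Kit had 98.1 and 93.0 TPM (transcripts per 1000000), Cd34 had 74.5 and 55.4, and Mpo had 386 and 386. Gata1 had 53.9 and 52.6 TPM, and Gata2 had 54.8 and 88.4. The binomial test with TMM scaling, described below, called Gata2 higher in replicate 2 (log2 ratio -0.65, adjusted p = 5.0e-94). The same binomial test called Cd34 higher in replicate 1 (0.48, adjusted p = 4.6e-38) and Mpo higher in replicate 2 (-0.084). Kit and Gata1 were not called with this scaling. Ly6a and Il7r, absent from this gate, had 0 counts in both libraries. Among markers of other cells, Cd3e, Col1a1 and Alb had 0 counts in both libraries, and the endothelial and blood cell adhesion gene Pecam1 had 20.0 and 17.3 TPM. Pecam1 was called higher in replicate 1 in that test (0.40).

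The nuclear pore is a channel through the nuclear envelope, built of rings of repeated scaffold subunits around a centre of disordered proteins. Import receptors bind cargo in the cytoplasm and release it where Ran carries GTP in the nucleus, and exportins bind cargo together with Ran and GTP and release it after hydrolysis in the cytoplasm. The adaptor importin alpha links proteins with a classical import signal to importin beta, and is itself returned to the cytoplasm by an exportin. Pore components also serve in mRNA export, chromatin contacts and mitosis, and NUP98 and NUP214 are known in human leukaemia as partners in gene fusions.

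Promoter windows are shown for 4 transport genes, because they cover the member with the highest level (Ran), the general exportin and the highest importin alpha (Xpo1 and Kpna2) and an importin alpha under the detection level (Kpna7). Each window runs from 250 bases before to 50 bases after a RefSeq gene start on GRCm38.p6, and 41 of the 52 genes matched a window by symbol. Capitals mark matches, on either strand, to 5 motifs that were searched, the E-box CACGTG, the ETS motif CCGGAAG, the CCAAT box CCAAT, the TATA motif TATAAA and the palindromic NRF1 motif, whose 10 letters are the longer run of capitals in the Ran window. The strands run 5′ to 3′ along the gene.
Ran promoter (chr5:129019906-129020205, plus strand): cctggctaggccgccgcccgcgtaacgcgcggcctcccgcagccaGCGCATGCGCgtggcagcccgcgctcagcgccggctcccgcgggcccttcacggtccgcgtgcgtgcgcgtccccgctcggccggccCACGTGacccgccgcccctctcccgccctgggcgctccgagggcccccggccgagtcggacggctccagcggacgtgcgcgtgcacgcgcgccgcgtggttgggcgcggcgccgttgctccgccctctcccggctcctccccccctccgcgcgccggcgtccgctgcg
Xpo1 promoter (chr11:23255791-23256090, plus strand): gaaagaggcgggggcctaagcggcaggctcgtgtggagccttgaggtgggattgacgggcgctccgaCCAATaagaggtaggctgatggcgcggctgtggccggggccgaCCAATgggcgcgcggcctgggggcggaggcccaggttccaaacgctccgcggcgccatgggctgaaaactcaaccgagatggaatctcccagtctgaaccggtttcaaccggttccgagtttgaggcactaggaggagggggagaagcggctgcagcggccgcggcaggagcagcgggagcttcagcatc
Kpna2 promoter (chr11:106999476-106999775, minus strand): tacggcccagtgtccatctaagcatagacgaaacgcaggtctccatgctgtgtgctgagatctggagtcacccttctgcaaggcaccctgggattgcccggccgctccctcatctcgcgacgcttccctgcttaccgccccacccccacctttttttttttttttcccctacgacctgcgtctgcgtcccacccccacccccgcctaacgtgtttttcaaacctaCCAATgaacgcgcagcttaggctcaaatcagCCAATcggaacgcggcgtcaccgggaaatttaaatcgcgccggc
Kpna7 promoter (chr5:145009587-145009886, minus strand): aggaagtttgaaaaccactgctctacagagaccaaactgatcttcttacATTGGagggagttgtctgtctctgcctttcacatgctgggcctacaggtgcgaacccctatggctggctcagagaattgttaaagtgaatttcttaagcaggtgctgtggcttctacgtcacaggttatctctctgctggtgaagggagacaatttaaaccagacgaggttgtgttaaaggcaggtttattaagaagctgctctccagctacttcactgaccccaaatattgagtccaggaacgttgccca
The Ran window held 1 NRF1 motif and 1 E-box, the Xpo1 and Kpna2 windows held 2 CCAAT boxes each, and the Kpna7 window held 1 CCAAT box read on the other strand. The E-box and the NRF1 motif each read the same on both strands, and no marked matches overlapped in these 4 windows. CpG dinucleotides numbered 58 in the Ran window, 27 in Xpo1, 24 in Kpna2 and 4 in Kpna7. Over the 47 windows of the 41 matched genes the median was 28 CpG, against 21 in 9898 windows of protein-coding genes at 1 TPM or more in both libraries and 7 in all 32841 windows. The window of Nup62cl, which had 0 counts, held 21 CpG, and that of Nup160, which was detected, held 6. An NRF1 motif stood in 8.51% of member windows (4 of 47, in Ran, Nup50, Nup107 and Xpo5), against 2.35% of windows of detected genes and 0.971% of all windows. For the E-box the shares were 14.9% of member windows, 10.5% of windows of detected genes and 7.15% of all. The ETS motif stood in 19.2%, 20.1% and 8.86% of the same windows, the CCAAT box in 48.9%, 38.3% and 37.4%, and the TATA motif in 10.6%, 6.35% and 13.6%. These shares are descriptions of letters in a window. Windows of a gene with 2 starts can overlap and are not independent.

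RNA of nearly all genes found by the rule was present. Of the 52 genes, 49 reached 1 TPM in both libraries, beside 44.9% of all nuclear protein-coding genes (9627 of 21461). The members had a median of 26.3 TPM in replicate 1 and 19.8 TPM in replicate 2 (mean 23.0 ± 4.57, SD, n = 2), against 13.2 and 13.5 TPM (13.3 ± 0.219) for the protein-coding genes at 1 TPM or more in both. They held 0.508% and 0.408% of nuclear protein-coding TPM (0.458 ± 0.0714%) and 0.394% and 0.375% of all counts. In replicate 1, 45 members stood above the median of the detected genes and 23 lay in the top 10% of protein-coding genes by TPM. The same counts in replicate 2 were 42 and 15. The 3 genes under 1 TPM were Nup210l, a relative of Nup210 known from the mouse testis, Kpna7, an importin alpha known from mouse oocytes and early embryos, and Nup62cl. Nup210l had 17 counts (0.15 TPM) and 25 counts (0.22 TPM), Kpna7 had 0 counts and 1 count, and Nup62cl had 0 counts in both libraries.

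**Figure D1:**
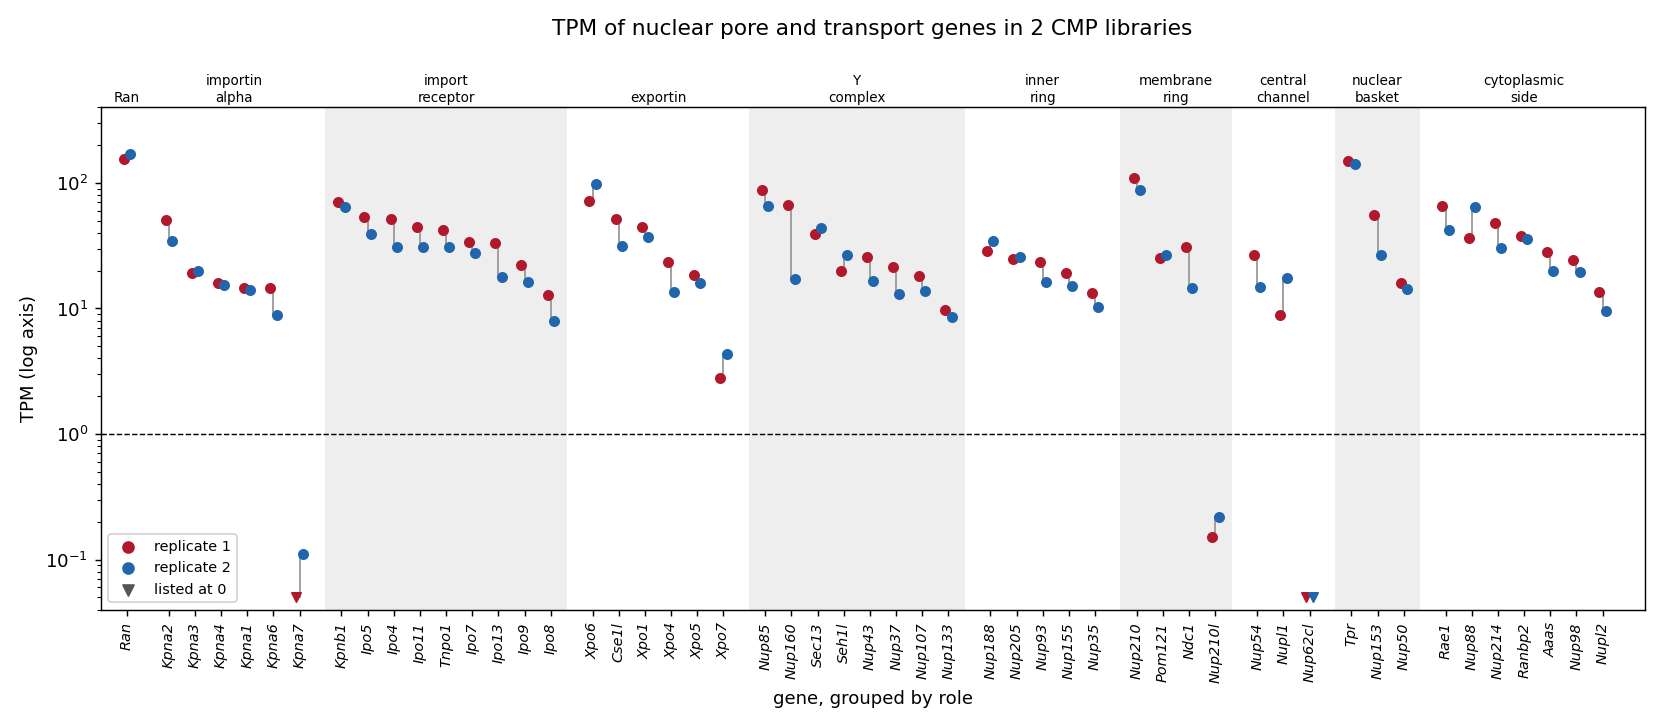
TPM of each of the 52 genes in replicate 1 (red) and replicate 2 (blue) on a log axis, grouped by role and ordered by mean within a group. Triangles are genes listed at 0, and the dashed line is 1 TPM. All but 3 genes sit above 1 TPM in both libraries, from Xpo7 at 2.80 and 4.36 TPM to Ran at 156 and 169 TPM.

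Ran, the GTPase that sets the direction of transport (chromosome 5, 129020069 to 129024323, plus strand, GRCm38), was the member with the highest level at 156 and 169 TPM (162 ± 9.44, SD, n = 2). Its counts were 7162 and 7688, and the posterior SD of its count, which reflects reads shared with other entries, was 19.3 and 10.3 counts. In TPM both libraries put Ran above every other member, and its TPM range did not overlap that of Tpr, the next in order.

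Among the 6 importin alpha genes, Kpna2 (chromosome 11, 106988629 to 106999541, minus strand) was highest at 50.5 and 34.2 TPM (42.3 TPM on average). Kpna3 stood at 19.3 and 19.96 TPM, Kpna4 at 15.9 and 15.4 TPM, Kpna1 at 14.5 and 14.0 TPM and Kpna6 at 14.6 and 8.93 TPM. The Kpna2 values lay above those of each other importin alpha in both libraries. The log2 ratio of TPM + 1 within a library, averaged over both and given with a 95% interval in brackets (spread moderated in limma over 9628 genes), was 1.48 [0.70 to 2.26] for Kpna2 over Kpna1, 1.05 [0.31 to 1.78] over Kpna3, 1.35 [0.59 to 2.12] over Kpna4 and 1.77 [0.91 to 2.64] over Kpna6. All 4 intervals excluded 0. Each interval combines the separate spreads of the 2 genes between the libraries. It treats the genes as independent and does not measure the spread of the ratio within a library. The intervals of 0.31 [-0.48 to 1.10] for Kpna3 over Kpna4 and 0.29 [-0.63 to 1.22] for Kpna1 over Kpna6 included 0. These ratios compare genes per length, and the added 1 understates the ratio where a gene is low. In CPM, where a long transcript yields more counts, none of the 4 Kpna2 intervals excluded 0.

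All 9 import receptors of the importin beta family were detected, with a median of 42.0 and 30.7 TPM in replicates 1 and 2. Kpnb1, importin beta itself (chromosome 11, 97159714 to 97187881, minus strand), led at 69.8 and 64.8 TPM with 7863 and 6417 counts. Ipo5, a receptor for ribosomal proteins and histones, had 53.8 and 39.1 TPM. Tnpo1, which imports RNA-binding proteins such as those with a proline-tyrosine signal, had 42.0 and 30.8 TPM. Kpnb1 exceeded Tnpo1 by a log2 ratio of 0.88 [0.25 to 1.51]. The related Ipo7 and Ipo8 stood apart. Ipo7 had 33.8 and 27.9 TPM and Ipo8, the lowest receptor in both libraries, had 12.7 and 8.01 TPM, a log2 ratio of 1.51 [0.65 to 2.38]. Ipo4 (51.4 and 30.8 TPM), Ipo11 (44.3 and 30.7 TPM), Ipo9 (22.3 and 16.3 TPM) and Ipo13 (33.4 and 17.7 TPM) were each higher in replicate 1 in TPM. In CPM Ipo4, Ipo9 and Ipo13 were too, while Ipo11 had 55.7 and 56.5. Ipo13 is known to work in export as well.

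In TPM the 6 exportins ranged more widely than the import receptors. In mean CPM this was not so, with exportins from 40.2 (Xpo7) to 146 (Xpo1) and import receptors from 23.1 (Ipo13) to 257 (Kpnb1). Xpo6, the exporter of actin with profilin (chromosome 7, 126101715 to 126200501, minus strand), had 71.4 and 97.3 TPM, while Xpo7, known in mouse erythroblasts for its part in nuclear maturation (chromosome 14, 70654246 to 70766628, minus strand), had 2.80 and 4.36 TPM. Xpo7 was the lowest detected member of all in TPM, with 862 and 1336 counts over a transcript of 15118 bases. In CPM it had 29.8 and 50.6, beside 39.3 and 37.7 for Nup133, the next lowest detected member in TPM. The log2 ratio of Xpo7 to Xpo6 was -4.22 [-5.10 to -3.35] in TPM and -1.56 [-2.05 to -1.06] in CPM. Xpo1, the exporter of proteins with leucine-rich signals, stood at 44.8 and 37.3 TPM, and Cse1l, which returns importin alpha to the cytoplasm, at 51.6 and 31.5 TPM. Their order turned between the libraries, and the log2 ratio of Xpo1 over Cse1l was 0.018 [-0.69 to 0.72]. Xpo5, the exporter of microRNA precursors, had 18.4 and 15.8 TPM, below Xpo1 in both libraries (log2 ratio of Xpo1 over Xpo5 1.21 [0.49 to 1.94]). Xpo4, which exports the translation factor eIF5A, had 23.5 and 13.5 TPM. Ran exceeded Kpnb1 by a log2 ratio of 1.26 [0.73 to 1.79] in TPM, while in CPM the ratio was 0.063 with an interval of -0.35 to 0.47.

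The 8 genes grouped here under the Y complex, the outer scaffold of the pore, were all detected, with a median of 23.6 and 16.9 TPM. In TPM Nup85 was highest at 88.4 and 66.0, and Nup133 was lowest at 9.76 and 8.60. By mean CPM Seh1l was highest at 58.6, beside 47.9 for Nup85. Nup160 had 66.6 and 17.3 TPM, Sec13 had 38.9 and 43.6 TPM, and Seh1l had 19.8 and 26.8 TPM. Sec13 also serves in vesicle coats. Nup43 (25.9 and 16.6 TPM), Nup37 (21.2 and 13.0 TPM) and Nup107 (18.3 and 13.8 TPM) lay between these. Nup160 over Nup85 gave a log2 ratio of -1.14 [-2.21 to -0.071] and Sec13 over Seh1l gave 0.81 [0.11 to 1.51]. Both intervals included 0 when limma was run without a variance trend, and in CPM the Sec13 over Seh1l ratio turned to -0.74 [-1.28 to -0.20]. The intervals of 0.73 [-0.18 to 1.64] for Nup107 over Nup133 and -0.30 [-1.18 to 0.58] for Nup37 over Nup43 included 0.

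The inner ring genes Nup188, Nup205, Nup93, Nup155 and Nup35 were all detected and spanned a narrow range in TPM. Nup188 was highest at 28.5 and 34.4 TPM, and the related large subunit Nup205 had 24.9 and 25.9 TPM, a log2 ratio of -0.29 [-0.98 to 0.40] for Nup205 over Nup188. Nup93, which anchors the ring, had 23.5 and 16.4 TPM, and Nup155 had 19.3 and 15.2 TPM, a log2 ratio of 0.19 [-0.64 to 1.01]. Nup35 was lowest at 13.4 and 10.3 TPM. Neither interval excluded 0.

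Of the membrane ring, which holds the pore in the envelope, Nup210 (chromosome 6, 91013068 to 91116829, minus strand) was highest at 109 and 88.1 TPM. Pom121 had 25.3 and 26.5 TPM, and Ndc1 had 31.0 and 14.5 TPM. Nup210 over Pom121 gave a log2 ratio of 1.88 [1.25 to 2.51]. In TPM Ndc1 stood above Pom121 in replicate 1 and below it in replicate 2 (log2 ratio -0.27 [-1.14 to 0.59]). In CPM Ndc1 was below Pom121 in both libraries, with a log2 ratio of -1.24 [-1.71 to -0.76]. In the central channel, which carries the repeats that bind receptors, Nup54 had 26.7 and 14.7 TPM, and Nupl1, also called Nup58, had 8.84 and 17.6 TPM. Nup54 was thus higher in replicate 1 and Nupl1 in replicate 2. The third channel gene, Nup62, is no member under the rule, because its gene identifier in the tables is absent from the later annotation that supplied symbols. It was matched through its transcript identifier and had 32.6 and 24.2 TPM. The log2 ratio of Nup62 to Nup54 was 0.48 [-0.35 to 1.31] in TPM and 0.86 [0.28 to 1.45] in CPM.

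The nuclear basket faces the chromatin. Tpr, which forms its filaments (chromosome 1, 150392838 to 150449935, plus strand), had 149.8 and 141 TPM, Nup153, which anchors Tpr, had 55.7 and 26.5 TPM, and Nup50, a partner of importin alpha, had 16.0 and 14.3 TPM. The 3 genes kept this order in both libraries. The log2 ratio was 1.89 [1.15 to 2.63] for Tpr over Nup153 and 1.29 [0.41 to 2.17] for Nup153 over Nup50.

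On the cytoplasmic side and among the mobile components, Rae1, an mRNA export factor, was highest by mean at 65.9 and 42.0 TPM. Its binding partner Nup98 had 24.4 and 19.7 TPM, a log2 ratio of -1.23 [-1.96 to -0.49] for Nup98 over Rae1. Nup88 had 36.1 and 63.9 TPM, and its partner Nup214 had 47.6 and 30.3 TPM, so that Nup214 was above Nup88 in replicate 1 and below it in replicate 2 (log2 ratio -0.33 [-1.10 to 0.44]). Ranbp2, the filament protein that binds Ran and attaches SUMO, had 37.5 and 35.8 TPM, with a log2 ratio to Nup214 of -0.052 [-0.75 to 0.64]. Aaas, a partner of Ndc1, had 28.1 and 19.99 TPM, and Nupl2, also called Nup42, was lowest at 13.5 and 9.50 TPM.

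In the order of all 52 members by mean TPM, 6 of 51 neighbouring pairs had library ranges that did not overlap. These gaps lay between Ran and Tpr, Tpr and Nup210, Ipo7 and Pom121, Nup133 and Xpo7, Xpo7 and Nup210l, and Nup210l and Kpna7. From Nup210 at 98.3 TPM to Ipo7 at 30.8 TPM, and from Pom121 at 25.9 TPM to Nup133 at 9.18 TPM, no neighbours were separated beyond the spread of the libraries. Across the 52 genes the Spearman correlation between the libraries was 0.885 in TPM and 0.917 in CPM, over genes that share the same 2 libraries. Of the 27 pairs compared, 15 intervals excluded 0, with 12 favouring the first gene and 3 the second, and 22 pairs had the same sign in both libraries. The pairs, and which gene stands first, were chosen with earlier results known. The split between first and second genes therefore reflects how the pairs were written. The share over other pairs of detected genes was not computed.

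TPM rests on how the quantification divided a gene's counts among its annotated transcripts, since a short transcript turns few counts into a high TPM. Transcripts annotated as protein-coding held 71.2 ± 3.15% of member TPM (69.0% and 73.4%) but 89.9 ± 1.26% of member counts (89.0% and 90.8%). Over all nuclear protein-coding genes they held 80.7 ± 1.01% of TPM. Retained-intron transcripts held 12.1 ± 0.610% of member TPM and processed transcripts without a reading frame 10.4 ± 4.21%. Over all nuclear protein-coding genes these shares were 9.69 ± 0.156% and 6.18 ± 0.529%. In 8 of the 49 detected members, coding transcripts held under 50% of the TPM in both libraries. These were Ipo4, Ipo11, Ipo13, Xpo6, Nup85, Nup88, Nup160 and Ndc1. The same share over all detected protein-coding genes was not computed, so whether this count is particular to the members cannot be told.

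Nup160 had a mean length of 24.5% of its longest coding transcript in replicate 1 and 57.5% in replicate 2. In replicate 1 its leading transcript was a processed transcript of 229 bases with 39.8% of the gene's TPM from 49.1 counts, and in replicate 2 that transcript held 0%. The coding transcript of 5684 bases held 17.5% of TPM in replicate 1 and 44.5%, from 868.9 counts, in replicate 2. The mean transcript length of the gene was 1391 bases in replicate 1 and 3269 in replicate 2, and its TPM of 66.6 and 17.3 stood beside total counts of 1707 and 1100. In Nup188 the mean length was 68.8% and 46.3% of its longest coding transcript, and TPM was lower in replicate 1 (28.5 and 34.4) while counts were higher (2210 and 1749). In Nup85 a processed transcript of 760 bases led in both libraries with 52.7% and 49.7% of TPM. In Tpr a coding fragment of 575 bases led with 28.0% and 36.8%. In Ndc1 a retained-intron transcript of 804 bases led in replicate 1 with 48.4%, and the coding transcript of 4584 bases led in replicate 2 with 46.5%. Xpo6 was led in both libraries by a transcript annotated for nonsense-mediated decay of 938 bases, with 20.7% and 23.3%.

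Levels were therefore also computed as CPM per kb of the longest protein-coding transcript, a scale chosen after these values were seen that does not use the division among transcripts. It takes that length whatever the transcript's share of the counts. Kpna4 was divided by 8819 bases, though a coding transcript of 3726 bases led in both libraries. Ipo4 was divided by 3846 bases, though its coding transcripts held 0 counts in replicate 1. On this scale Ran again stood first, at 102 CPM per kb in replicate 1 and 120.1 in replicate 2 (111 ± 12.6). Next came Kpnb1 at 46.1 and 41.2, Nup210 at 38.0 and 35.2, Ipo5 at 37.0 and 29.3 and Tpr at 30.9 and 31.5. Ranbp2 stood at place 6 on this scale and at place 19 in TPM. Nup160 stood at place 40 with 10.4 and 7.32 and at place 11 in TPM. Ipo13 stood at places 46 and 24, Ipo4 at places 30 and 14, and Nup85 at places 14 and 5. Within the Y complex Sec13 was highest per kb, at places 10 and 13. Nup205 (places 24 and 25) led the inner ring per kb, and Ranbp2 led the cytoplasmic side. The Spearman correlation of the 2 scales across the 52 genes was 0.874, over values that come from the same counts. Every pair whose TPM interval excluded 0 kept its sign with an interval that excluded 0 on this scale, where 20 of 27 did so. The Xpo7 to Xpo6 log2 ratio was -2.88 on it (interval -3.61 to -2.16). Ranbp2 exceeded Nup214 on it (0.67, interval 0.15 to 1.18), and Ipo5 exceeded Ipo4 (1.35, interval 0.79 to 1.92). In CPM with no length correction 15 intervals excluded 0, and 7 pairs excluded 0 with the same sign on all 3 scales.

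**Figure D2:**
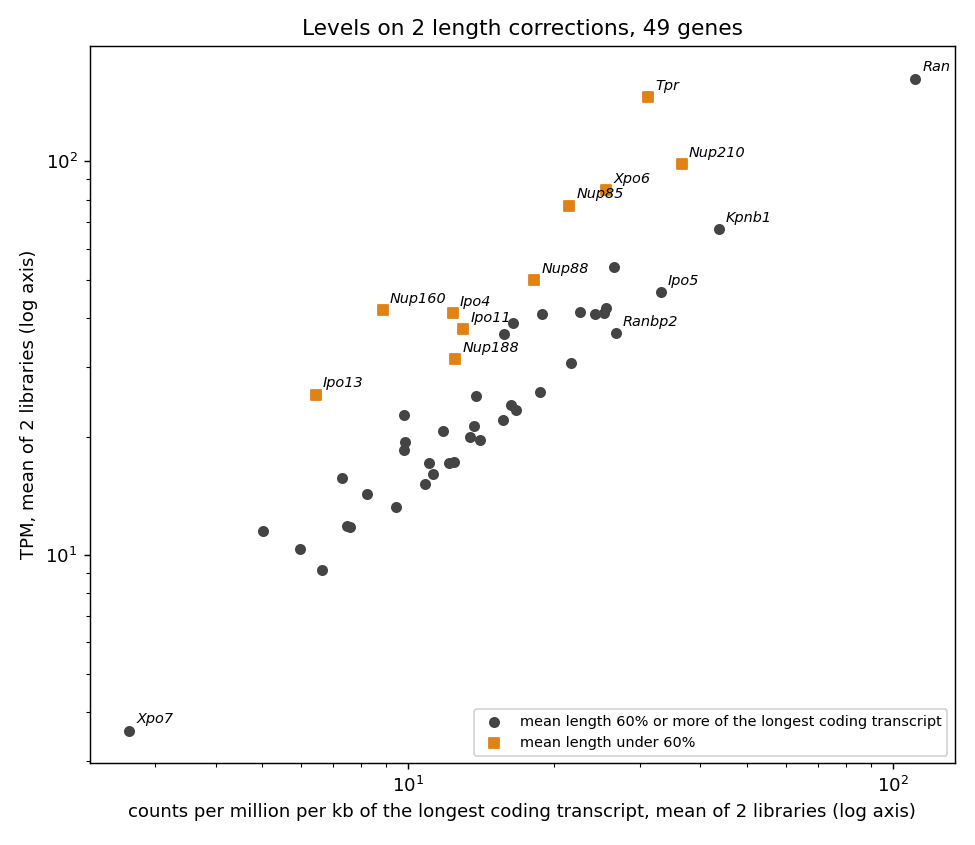
Mean TPM against mean CPM per kb of the longest coding transcript, both on log axes, for the 49 members detected in both libraries. Orange squares are the 10 genes whose mean transcript length was under 60% of their longest coding transcript, and they lie at the upper edge of the points.

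**Figure D3:**
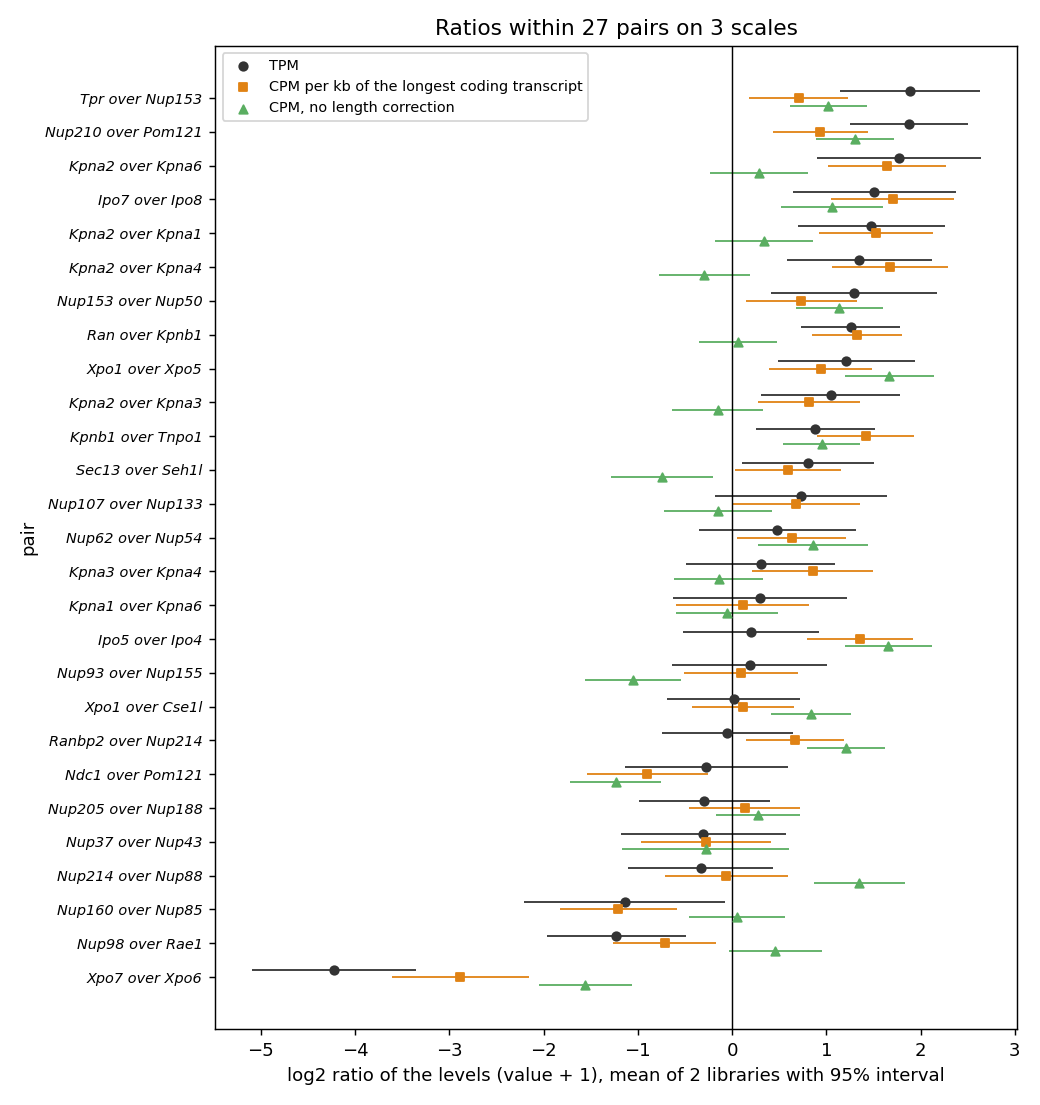
Mean log2 ratio of 27 pairs of genes (first over second) with 95% intervals, in TPM (black circles), CPM per kb of the longest coding transcript (orange squares) and CPM (green triangles), each after adding 1. Xpo7 over Xpo6 lies below 0 and Tpr over Nup153 above 0 on all 3 scales, while the Kpna2 ratios exceed 0 in TPM and per kb and reach 0 in CPM.

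The leading transcript was the same in both libraries for 29 of 37 members that have at least 2 transcripts and at least 50 counts per library (78.4%), beside 59.5% of 7176 protein-coding genes under the same conditions. The lead was annotated as protein-coding in both libraries in 28 of 37 members (75.7%), beside 70.6% of those genes. Of the 8 members whose lead changed, 4 exchanged transcripts that differed by 50 bases or fewer. Nup37 gave all of its TPM to a transcript of 1283 bases in replicate 1 and to one of 1265 bases in replicate 2. Pom121 was led by a transcript of 5541 bases that the later annotation lacks, with 91.1% of TPM, in replicate 1 and by one of 5580 bases in replicate 2.

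More members were called higher in replicate 1 than in replicate 2, by a margin that depended on the scaling. With TMM scaling, the exact binomial test (two-sided, on expected counts after rounding) called 43 of the 50 members tested at an adjusted p under 0.05, beside 78.2% of 13503 genes and 77.8% of 11656 protein-coding genes. Replicate 1 was higher in 38, beside 37.5% of protein-coding genes, and replicate 2 in 5, beside 40.3%. This test compares 2 libraries under counting noise, not conditions, and most genes pass it. In such pools, fewer cells with a transcript and less of it per cell cannot be told apart. With the edgeR exact test at the spread over all genes (coefficient of variation 0.7535), 0 members and 0% of genes were called, and at an unadjusted p under 0.05 the counts were 0 members and 1555 of 13503 genes. That spread was estimated from the same 2 libraries taken as 1 group. It holds the differences under test, so the lack of calls cannot show that the libraries are alike. The members' median log2 ratio of replicate 1 to replicate 2 was 0.31, against 0.028 for 6470 protein-coding genes with 300 or more counts in each library. Of those deeper genes 74% were called, 39.4% higher in replicate 1 and 34.7% higher in replicate 2. Among the 47 members of the same depth, 36 were higher in replicate 1 and 5 in replicate 2, with a median of 0.32. Scaling by total counts lowered the median of all genes tested to -0.23, against -0.026 with TMM, and then 27 members were called higher in replicate 1 and 13 in replicate 2 (67.5% of the called members higher in replicate 1, against 88.4% with TMM). Of the protein-coding genes 25.5% were then called higher in replicate 1 and 53.4% in replicate 2. The members' median exceeded that of the deeper genes by 0.28, a difference that a scaling factor cannot change. The median ratio of deeper genes ran from -0.092 under 1000 bases of gene length to 0.075 above 5000, and that of the members from 0.47 at 1000 to 2000 bases to 0.22 above 5000.

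The largest ratio was that of Xpo4, with 1854 and 996 counts and a log2 ratio of 0.92 (adjusted p = 7.6e-61, binomial). Nup43 had 634 and 348 counts (0.89), Ndc1 had 1608 and 901 (0.86), Nup37 had 496 and 294 (0.78) and Cse1l had 2805 and 1782 (0.68). In the other direction Nupl1 had 480 and 947 counts and a log2 ratio of -0.95 (adjusted p = 1.6e-32, binomial), and Nup88 had 865 and 1563 (-0.83). Xpo7 followed at -0.60, Seh1l at -0.40 and Ran at -0.074. With TMM no member differed by more than 2-fold in scaled counts, beside 2.50% of the deeper protein-coding genes, and with total counts 2 did, Nupl1 (-1.15) and Nup88 (-1.03). By role, with TMM all 9 import receptors and all 5 inner ring genes were called higher in replicate 1. The same call was made for 38 of all 50 members tested and 37.5% of protein-coding genes, and no test compared the roles. With total counts 7 receptors and 4 inner ring genes were called higher in replicate 1, beside 25.5% of protein-coding genes. Ipo9 (0.053), Ipo11 (-0.065) and Nup35 (0.071) then lost their calls. The Y complex had 5 genes called higher and 1 lower in replicate 1 with TMM, against 4 and 3 with total counts. For the exportins these numbers were 4 and 1 with TMM, against 2 and 2 with total counts, where Xpo1 and Xpo5 lost their calls and Xpo6 was called lower (-0.27). The cytoplasmic side had 6 and 1 with TMM and 4 and 2 with total counts, where Ranbp2 was called lower (-0.10) and Nup214 lost its call (-0.057). The 3 basket genes were all called higher with TMM, while with total counts Tpr was called lower (-0.071) and Nup50 was not called (-0.0071). The importin alphas had 3 called higher and 0 lower with TMM, against 2 and 2 with total counts, where Kpna4 lost its call and Kpna1 (-0.30) and Kpna3 (-0.22) were called lower. The membrane ring had 2 and 0 with TMM and 2 and 1 with total counts, where Pom121 was called lower (-0.25), and the central channel had 1 in each direction with both. Sec13 had 923 and 959 counts and no call with TMM (-0.027), but was called lower in replicate 1 with total counts (-0.23).

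**Figure D4:**
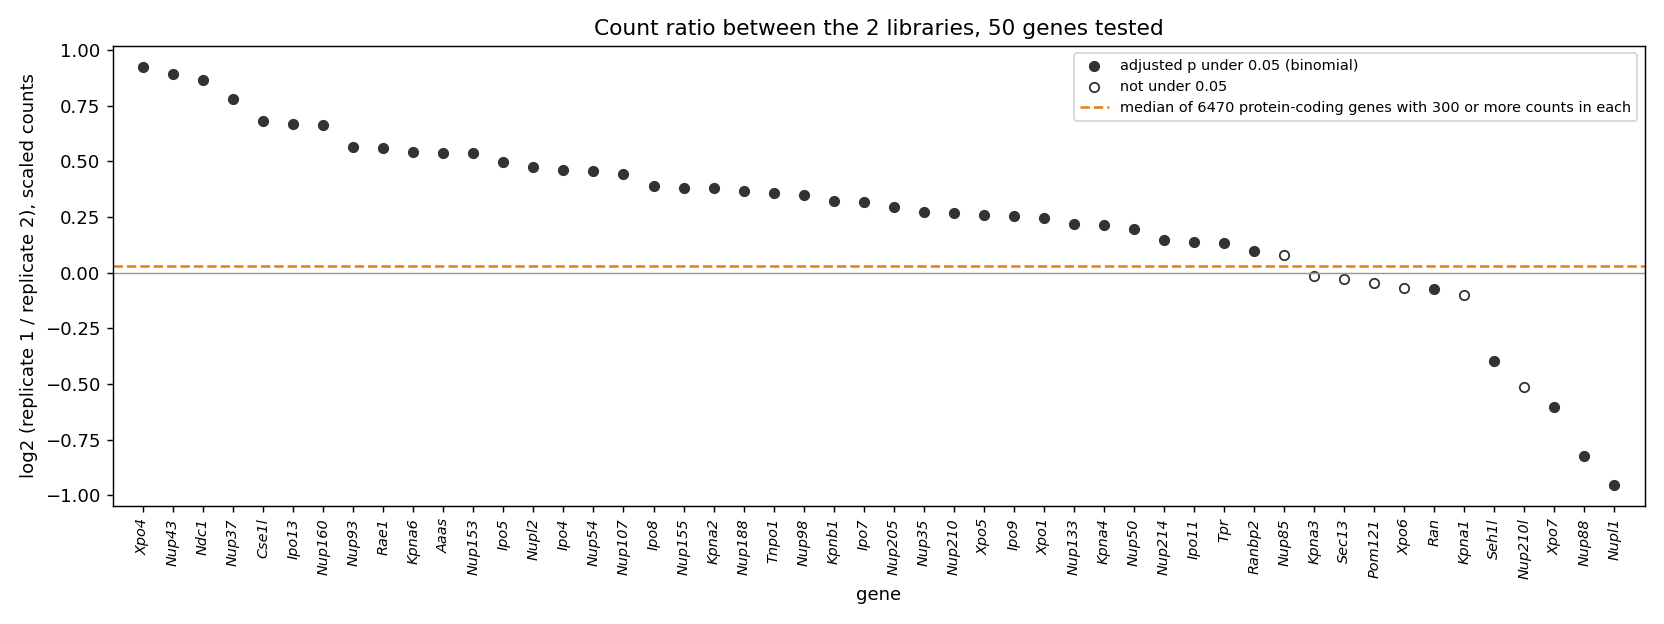
Log2 ratio of replicate 1 to replicate 2 in TMM-scaled counts for the 50 members tested, ordered by ratio. Filled points have an adjusted p under 0.05 in the binomial test, and the dashed line is the median of 6470 deeper protein-coding genes at 0.028, with 38 called members above 0 and 5 below it under this scaling.

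The partners of the pore and of its receptors were likewise present. All 39 genes in 5 further lists reached 1 TPM in both libraries. The 6 genes of the Ran cycle had a median of 29.5 and 24.4 TPM, and with TMM 3 were called higher and 3 lower in replicate 1. In this list Rcc1, the exchange factor that loads Ran with GTP on chromatin, had 27.2 and 20.7 TPM, and Rangap1, which triggers its hydrolysis, had 31.7 and 28.1 TPM. Ranbp1, which assists Rangap1, had 169 and 201 TPM, and Nutf2, which carries Ran back into the nucleus, had 15.5 and 7.76 TPM. The 8 other receptors and adaptors had a median of 16.3 and 13.9 TPM, with 4 called higher and 1 lower in replicate 1. The 15 genes of mRNA export had a median of 25.1 and 15.5 TPM, with 10 called higher and 4 lower. Among them Nxf1, the main mRNA exporter, had 171 and 271 TPM, and its cofactor Nxt1 had 25.1 and 15.5 TPM. The 5 genes of pore assembly and the SUMO pathway had a median of 46.7 and 44.9 TPM, 2 called in each direction, and Ahctf1, the chromatin-bound starter of pore assembly also called ELYS, had 49.95 and 44.91 TPM. The 5 lamina genes had a median of 8.86 and 9.99 TPM, with 4 called higher and 1 lower in replicate 1. In this list Lbr, a receptor for B-type lamins, had 55.5 and 44.9 TPM, and Lmna, the A-type lamin, had 3.62 and 4.09 TPM. Over the 39 genes 34 were called with TMM, 23 higher in replicate 1 and 11 higher in replicate 2, beside the 77.8%, 37.5% and 40.3% of protein-coding genes given above, and the median log2 ratio was 0.18. With total counts 26 were called, 12 higher in replicate 1 and 14 higher in replicate 2, beside 78.9%, 25.5% and 53.4% of protein-coding genes.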

How the data were processed

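Per the labels, reads were aligned to mouse build mm10, and gene and transcript tables per library use GENCODE M4, per the labels and the tables' documentation. The deposited expected counts are the authors' estimates, in which reads shared between transcripts are divided. The deposited TPM values are per 1000000 over all table entries, and the deposited percent values give each transcript's share of its gene. No source used here names the aligner or the quantifier. Symbols, biotypes and coordinates came from GENCODE M21 (GRCm38) by unversioned identifier, for 42462 of 43346 mouse genes.

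The gene list, the pairs, the pathway lists and the tests were chosen with earlier results of these data known. Named genes are the highest and lowest of each role, those under 1 TPM, the pairs and the largest called ratios, and other genes were added for context. Detection means 1 TPM or more. Counts were rounded and compared by R's exact binomial test with TMM factors from edgeR 4.0.16 in R 4.3.3, over the 13503 genes that had at least 10 counts in either library, and adjusted by Benjamini-Hochberg. The quasi-likelihood test has no residual degrees of freedom here. Pair intervals (95%) came from limma 3.58.1 with a pseudocount of 1 and have no p-value. They combine the spreads of the 2 genes as if independent and leave out the pairing within a library. On simulated counting noise over 13503 genes, with 50 genes per fold size, the share recovered was 82% for a 1.5-fold rise, 82% for 2-fold, 96% for 4-fold and 66% for a fall to 0.5, and 7 of 13303 genes left unchanged were called. Depth is 28916263 and 26426710 counts, and floors cover counting error only, as no molecular identifiers are named. Promoter windows are from RefSeq. One marker of other cells is not reported here.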

Additional observations from a re-analysis of the deposited data

How the results depend on the processing

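The number of detected members was 48 to 49 under TPM thresholds of 0.5 and 5, with posterior mean TPM, and without either library. The median TPM was 59.998 when rescaled over nuclear protein-coding genes, 22.2 with posterior mean TPM, and 19.8 to 26.3 with 1 library left out. The share of TPM was 0.176% over all table entries, 0.458% with posterior means, and 0.408% to 0.508% with 1 library left out. The binomial test called 43 members with DESeq2 1.42.0 size factors, 43 with no count minimum and 40 with total counts. The edgeR exact test, whose spread was estimated from these same 2 libraries, called 0. Under total counts the log2 ratio between libraries changed sign in Nup85 (-0.12), Ranbp2 (-0.10), Tpr (-0.071), Ipo11 (-0.065), Nup214 (-0.057) and Nup50 (-0.0071). The pair intervals that excluded 0 numbered 15 with a pseudocount of 0.1, 15 with posterior means, 13 without a variance trend (Nup160 over Nup85 and Sec13 over Seh1l then included 0), 15 in CPM and 20 per kb. In CPM the sign changed, where the interval in TPM, in CPM or, for Sec13 over Seh1l, in both excluded 0, for Kpna2 over Kpna3 (-0.15), Kpna2 over Kpna4 (-0.29), Nup93 over Nup155 (-1.05), Nup214 over Nup88 (1.35), Nup98 over Rae1 (0.46), Nup160 over Nup85 (0.050), Sec13 over Seh1l (-0.74) and Ranbp2 over Nup214 (1.21). Per kb it changed for Ranbp2 over Nup214 (0.67). CPM by its construction leaves out gene length, and for the other settings the cause was not tested. The same leading transcript was found in 29 members at 20 or more counts and in 24 with protein-coding transcripts alone. The last count is over fewer members, as only those with at least 2 coding transcripts enter. It therefore cannot be read as a lower share. No paired analysis was possible because both libraries belong to 1 group. With 2 libraries, an SD rests on 1 difference, and the members near 0 counts are limited by depth.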

Other observations

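Genes with related names that lie outside the rule were read in the same tables. Xpot, the exporter of tRNA, had 19.8 TPM in replicate 1 and 19.1 TPM in replicate 2. Kpna2-ps, a pseudogene copy of Kpna2, had 1.95 and 2.53 TPM, and the posterior SD of the Kpna2 count was 17.6 and 13.3 counts. Nupr1 had 0 and 0.48 TPM, and Nupr1l had 0 and 4.13 TPM.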
